A study of Drosophila melanogaster with 6 samples.

Results

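The Yellow family genes of the fruit fly Drosophila melanogaster were followed in RNA-seq of whole larvae of instar 3. The table of FPKM (fragments per kilobase of transcript, scaled to the mapped fragments of the library) has 16662 rows, and 14 of them carry the symbol y or a symbol that starts with yellow-. The report covers 10 of these rows: y, yellow-b, yellow-c, yellow-d, yellow-d2, yellow-e, yellow-e3, yellow-f, yellow-f2 and yellow-h. They were chosen by their symbols at a time when earlier results of these data were known, so their levels and changes describe these genes and are no independent test of the family. The other 4 rows, yellow-e2, yellow-g, yellow-g2 and yellow-k, are given by their values alone.

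The control was the yw strain, and the mutants were stocks homozygous for HP1b16 or HP1b86, with 2 libraries for each of the 3 genotypes. Both alleles are deletions at HP1b, which encodes a chromatin protein of the HP1 family, and both were made by imprecise excision of the same P element. The mutant stocks had been crossed back into yw before use. The stocks therefore share loss-of-function mutations of y and of white with the control: y itself was mutant in all 6 libraries, and the y allele is not named in the sources used here. Each mutant stock stands for 1 deletion. No source gives the sex of the larvae, their age within the instar, how many were pooled, or whether the samples of a genotype were separate collections, so p-values rest on the spread of these 6 libraries alone and it may be technical.

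Yellow proteins are secreted proteins of insects that share a domain with the major royal jelly proteins of the honey bee. The founding gene, y, is needed for black melanin in the cuticle, and flies that lack it are yellowish in place of dark. Insects harden and colour a new cuticle after each moult by oxidising dopamine and related catechols, and the products of yellow-f and yellow-f2 convert dopachrome, an intermediate on the way to melanin. In the silkworm Bombyx mori, yellow-e is needed for normal larval colouring. The products of yellow-g and yellow-g2 act in the vitelline membrane of the egg.

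The 10 genes were all found in the Ensembl BDGP6 annotation, which is a later build than the dm3 of the FPKM values and was used for gene structure and gene order only. y lies on the X chromosome, yellow-b and yellow-c on arm 2L, yellow-d and yellow-d2 on arm 2R, yellow-e, yellow-e3, yellow-f and yellow-f2 on arm 3R, and yellow-h on chromosome 4. Several sit side by side on the same strand. yellow-d is followed directly by yellow-d2 among the protein-coding genes. yellow-f stands next to yellow-f2, and yellow-e2 lies between yellow-e3 and yellow-e. The coding sequences span from 409 codons in yellow-e3 to 541 codons in y, and the longest transcript of each gene has from 2 to 4 exons. All of the members except yellow-e, yellow-e3 and yellow-f2 overlap a gene or transposon fragment on the opposite strand. No source says whether the counting used strand, so reads of overlapping genes may not have been told apart. Neighbouring family members may likewise share reads where their sequences agree.

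HP1b served as the check of the labels. Its level was 22.8 and 24.2 FPKM in yw, 2.55 and 3.13 FPKM in HP1b16, and 0.121 and 0.0403 FPKM in HP1b86, so it was low in all 4 libraries labelled as mutant. The paper reports no full-length mRNA from either allele, but an aberrant RNA of the locus in the HP1b16 stock. The salivary glue genes of late larvae were present, at 19183 to 73877 summed FPKM. The vitelline membrane list had 0.211 to 0.442 summed FPKM over its 5 genes. In the fat body list, 5 of 6 genes were listed at 0 in at least 1 library, among them Lsp2 in both HP1b16 libraries, beside high values in others, so these values may be failed estimates, and the list, at 8415 to 43121 summed FPKM, says little of that tissue. Of its 6 genes, 1 was called lower averaged over both mutants, where 6.38% of all tested rows were called. That gene was Lsp2, with a log2 change of -12.95 in HP1b16, where it was listed at 0, and of 0.59 in HP1b86. The table gives no read numbers, but low values repeat in steps. The worth of 1 step relative to yw replicate 1 was read from the commonest ratio among 288 to 579 low genes, and its inverse gives a relative depth of 1 and 0.791 in yw, 0.813 and 1.32 in HP1b16, and 0.432 and 0.648 in HP1b86. By this estimate HP1b86 replicate 1 was the shallowest library. The paper states a range of reads collected per sample that is narrower than the spread of these estimates. Mapped fragments are not given, so the estimate was not checked against them. The HP1b86 libraries also differed most from each other, with a correlation of 0.887 over 10986 rows, against 0.978 in yw and 0.975 in HP1b16. HP1b86 replicate 2 stood nearer to the yw mean than replicate 1 did for 7 of the 10 members, and for 69.9% of the rows that average 1 FPKM or more.

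In yw, the family was led by yellow-c, with a mean of 130 FPKM (SD 76.2, n = 2), followed by yellow-f with 83.0 (SD 13.9, n = 2), yellow-d2 with 77.6 (SD 39.4, n = 2) and yellow-e with 46.4 (SD 6.95, n = 2). The ranges of each of these neighbours overlapped, so their order is not resolved. Below them stood yellow-b with 23.2 FPKM (SD 7.10, n = 2), yellow-d with 6.41 (SD 0.587, n = 2) and yellow-h with 2.99 (SD 0.0273, n = 2). yellow-e3 (0.823 FPKM, SD 0.0756, n = 2), yellow-f2 (0.179 FPKM, SD 0.0824, n = 2) and y (0.0305 FPKM, SD 0.00976, n = 2) were at the bottom, and from yellow-e downward no neighbouring ranges overlapped. FPKM are per transcript length, so these levels can be set beside each other. In both mutants yellow-d2 took the lead, with a mean of 145 FPKM (SD 35.5, n = 2) in HP1b16 and 99.1 FPKM (SD 48.6, n = 2) in HP1b86, and it did not overlap the next gene, yellow-e, in either. y stayed last in all 3 genotypes. yellow-f2 held the ninth place in yw and the seventh in both mutants, where its range overlapped that of yellow-h.

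**Figure D1:**
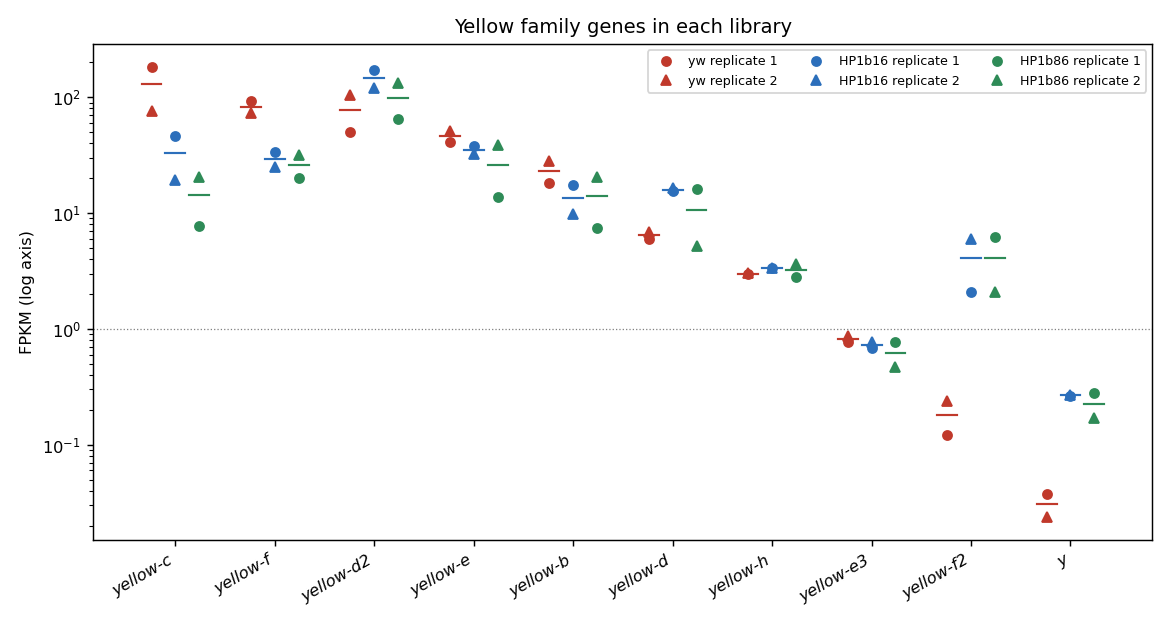
FPKM of the 10 Yellow family genes on a log axis, ordered by their yw mean, with a point for each of the 6 libraries (circles for replicate 1, triangles for replicate 2) and a bar at the mean of a genotype; the dotted line marks 1 FPKM. The mutant points of yellow-c and yellow-f lie below both yw points, those of yellow-f2 and y lie above them, and those of yellow-h lie on both sides.

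The summed level of the 10 genes was 396 and 345 FPKM in yw, 327.7 and 233 FPKM in HP1b16, and 140 and 256 FPKM in HP1b86. All 4 mutant sums were below both yw sums, and the lowest was that of the shallow HP1b86 replicate 1. The margin was narrow, with 345 FPKM in yw replicate 2 and 327.7 FPKM in HP1b16 replicate 1. Of single rows in the fit, 19.8% lay below both yw libraries in this way. The share held by yellow-d2 was 12.6% and 30.5% in yw, and from 46.3% to 52.1% in the mutant libraries. The share held by yellow-c was 46.5% and 22.1% in yw, and from 5.51% to 14.2% in the mutants. These shares are taken within a library and do not depend on the scaling between libraries. The yw libraries differed in which gene was most abundant, since yellow-c led in replicate 1 and yellow-d2 in replicate 2.

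**Figure D2:**
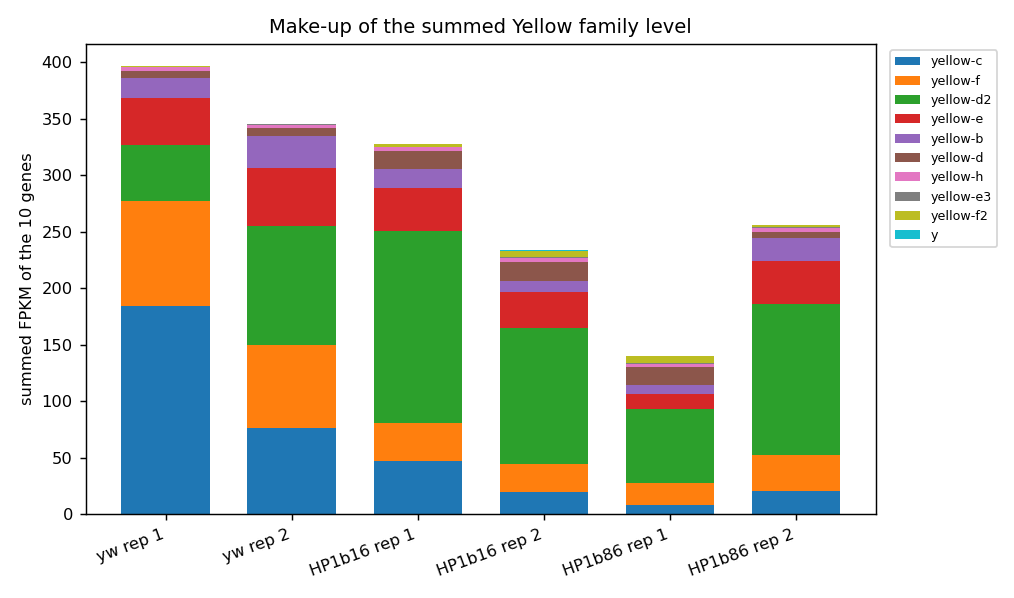
Summed FPKM of the 10 Yellow family genes in each library (bars start at 0), split by gene. yellow-c and yellow-f make up much of the yw bars, and yellow-d2 holds from 46.3% to 52.1% of the mutant bars.

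y, the gene of black melanin, was near the bottom of the measurable range. It stood at 0.0374 and 0.0236 FPKM in yw, 0.264 and 0.268 FPKM in HP1b16, and 0.279 and 0.171 FPKM in HP1b86. All 4 mutant libraries were above both yw libraries. The values were turned into steps, a step being taken as the smallest unit of counting and scaled to each library by its relative depth. The step was chosen by giving yw replicate 2 the smallest whole number that put the other 5 values within 0.2 step of whole numbers, so their fit is no test of it. That gave 4 and 2 steps in yw, 23 and 38 in HP1b16, and 13 and 12 in HP1b86. Per unit of depth, the ratio to yw was 8.54 in HP1b16 (95% exact interval from 3.71 to 24.2) and 6.91 in HP1b86 (2.77 to 20.6), intervals that cover counting error only and rest on that choice of step. With a mean of 0.174 FPKM over all libraries y did not enter the fit. In a fit with no filter on low values, its log2 change in FPKM + 1 was 0.30 in HP1b16 (unadjusted p = 0.00472, limma adjusted p = 0.104) and 0.25 in HP1b86 (unadjusted p = 0.00939, limma adjusted p = 0.0924), so it did not pass the threshold of 0.05. CG32816, which overlaps y on the opposite strand, had 1.09 and 1.38 FPKM in yw, against 1.45 to 2.75 FPKM over the 4 mutant libraries, and its part in the level of y was not tested.

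yellow-f and yellow-f2, the genes of the dopachrome conversion enzymes, had log2 changes of opposite sign. yellow-f had 92.8 and 73.1 FPKM in yw, 33.6 and 24.9 FPKM in HP1b16, and 20.1 and 31.4 FPKM in HP1b86. Every mutant library was below both yw libraries, and the mutants overlapped each other. The log2 change was -1.48 in HP1b16 (SE 0.29, where SE is the standard error, limma adjusted p = 0.0856) and -1.67 in HP1b86 (SE 0.29, limma adjusted p = 0.0548). Averaged over both mutants yellow-f fell by 1.58 on the log2 scale (SE 0.25, 95% interval from -2.23 to -0.92, limma adjusted p = 0.0433), the only member to pass. That call ended when any single yw or HP1b16 library was left out, with adjusted p from limma between 0.114 and 0.336, and the direction stayed. It also ended with no filter on low values (limma adjusted p = 0.0536).

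yellow-f2 stood at 0.121 and 0.237 FPKM in yw, 2.099 and 6.02 FPKM in HP1b16, and 6.18 and 2.06 FPKM in HP1b86. All 4 mutant libraries were above both yw libraries. By the step of y and the transcript lengths, the yw values rest on about 9 and 14 steps and the mutant values on about 103 to 611 steps. The means of the mutants were 22.6 times (HP1b16) and 23.0 times (HP1b86) that of yw, and the log2 change in FPKM + 1, which makes changes of low genes smaller, was 1.99 averaged over both mutants (SE 0.50, 95% interval from 0.66 to 3.32, limma adjusted p = 0.0813). With 0.1 added in place of 1, the value was 3.75 and the gene passed (limma adjusted p = 0.0472).

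The ratio of yellow-f to yellow-f2 within a library was 767 and 308 in yw, 16.0 and 4.13 in HP1b16, and 3.26 and 15.2 in HP1b86. The lowest yw ratio was far above the highest mutant ratio, and no scaling between libraries enters these values. The separation itself follows from yellow-f being below and yellow-f2 above yw in every mutant library, so it adds no evidence. The yw values of yellow-f2 rest on about 9 and 14 steps. Of single rows in the fit, 24.4% lay above and 19.8% below yw in this way, and no share over gene pairs was taken. The neighbours yellow-d2 and yellow-d did not separate the genotypes in this way, with ratios of 8.31 and 15.5 in yw, 11.01 and 7.30 in HP1b16, and 4.04 and 25.6 in HP1b86. yellow-e against yellow-e2 gave 29.0 and 30.6 in yw and from 1.66 to 15.6 in the mutants, without overlap. That too follows from yellow-e being below and yellow-e2 above yw in every mutant library. yellow-e against yellow-e3, which are not direct neighbours, gave 53.9 and 58.5 in yw, 55.2 and 41.8 in HP1b16, and 18.0 and 82.8 in HP1b86. There the genotypes overlapped. The adjacent pair yellow-e2 and yellow-e3 gave 1.86 and 1.91 in yw, 10.3 and 11.8 in HP1b16, and 10.8 and 5.29 in HP1b86, without overlap.

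**Figure D3:**
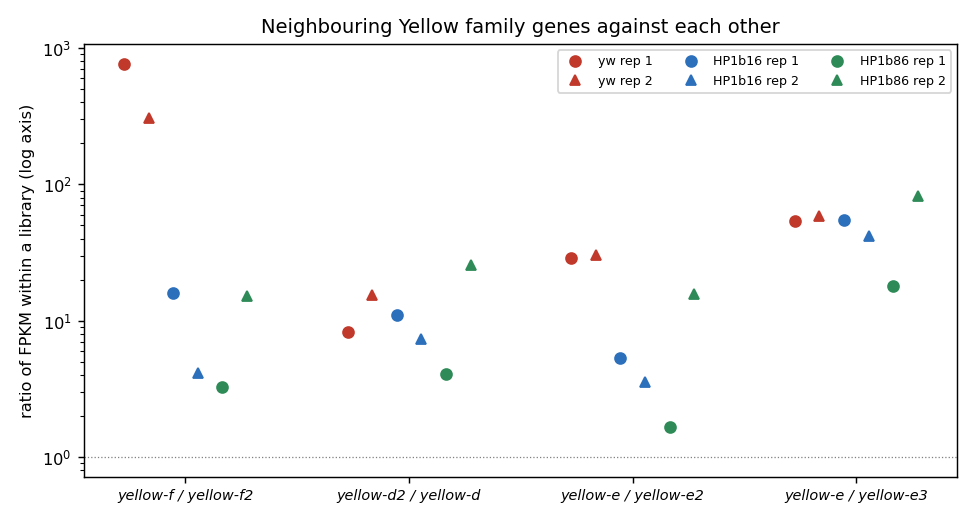
Ratio of the FPKM of Yellow family genes that lie near each other, within each of the 6 libraries, on a log axis. Colours mark the genotype and the dotted line marks equal levels. yellow-e and yellow-e3 are not direct neighbours, since yellow-e2 lies between them. The yw ratios of yellow-f to yellow-f2 are 767 and 308, and those of the mutants run from 3.26 to 16.0.

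yellow-c, the most abundant member in yw on average, had 184 and 76.4 FPKM in yw, 46.7 and 19.4 FPKM in HP1b16, and 7.71 and 20.7 FPKM in HP1b86. Every mutant library was below both yw libraries, but the yw libraries themselves were 2.41-fold apart. The log2 change was -1.94 in HP1b16 (SE 0.73, limma adjusted p = 0.208), -3.12 in HP1b86 (SE 0.73, limma adjusted p = 0.0791) and -2.53 averaged over both mutants (SE 0.63, limma adjusted p = 0.0797), so the gene did not pass. With quantile normalization it passed in HP1b86 (limma adjusted p = 0.0413) and averaged over both mutants (limma adjusted p = 0.0381), and with scaling to TPM it passed in HP1b86 (limma adjusted p = 0.0431). The change averaged over both mutants was -1.90 without yw replicate 1 and -3.16 without yw replicate 2. CIAPIN1, which overlaps yellow-c on the opposite strand, had 36.1 and 32.2 FPKM in yw, against 17.6 to 22.05 FPKM over the 4 mutant libraries. Whether reads of the overlap entered the value of yellow-c was not tested.

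yellow-e and yellow-b, at middle levels, were lower in the mutants on average, and neither passed. yellow-e had 41.4 and 51.3 FPKM in yw, 37.9 and 32.4 FPKM in HP1b16, and 13.8 and 38.4 FPKM in HP1b86. The mutant libraries were all below yw, 3 of them close to it and HP1b86 replicate 1 far below. Its log2 change averaged over both mutants was -0.68 (95% interval from -1.80 to 0.45, limma adjusted p = 0.368). yellow-b had 18.2 and 28.2 FPKM in yw, 17.4 and 9.81 FPKM in HP1b16, and 7.49 and 20.4 FPKM in HP1b86, and the genotypes overlapped. Its log2 change was -0.78 (95% interval from -2.05 to 0.49, limma adjusted p = 0.358).

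yellow-d and yellow-d2 had positive log2 changes in both mutants, and neither passed. yellow-d had 5.99 and 6.82 FPKM in yw, 15.5 and 16.5 FPKM in HP1b16, and 16.0 and 5.21 FPKM in HP1b86. Both HP1b16 libraries and HP1b86 replicate 1 were above yw, and HP1b86 replicate 2 was below it. In HP1b16 the log2 change was 1.197 (SE 0.49, limma adjusted p = 0.239), and when HP1b16 was fitted with yw alone the same change passed (limma adjusted p = 0.0106). In that fit yellow-f and yellow-f2 passed as well, as did 2382 of 10986 rows, against 2 rows in the main fit. In HP1b86 the log2 change of yellow-d was 0.48 (SE 0.49, limma adjusted p = 0.623), and it was -0.25 without HP1b86 replicate 1 and -0.07 under scaling to TPM (each library set to the same sum). yellow-d2 had 49.8 and 106 FPKM in yw, 170 and 120 FPKM in HP1b16, and 64.8 and 133 FPKM in HP1b86. Its yw libraries were 2.12-fold apart, and HP1b86 replicate 1 lay between them. The log2 change averaged over both mutants was 0.66 (95% interval from -0.54 to 1.87, limma adjusted p = 0.411). CG13551, which overlaps both genes on the opposite strand, had from 633 to 1006 FPKM over the 6 libraries.

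yellow-h, the member on the largely heterochromatic chromosome 4, lay between 2.83 and 3.62 FPKM throughout. Its values were 2.97 and 3.01 FPKM in yw, 3.33 and 3.33 FPKM in HP1b16, and 2.83 and 3.62 FPKM in HP1b86. The HP1b86 libraries enclosed all the others. The log2 change averaged over both mutants was 0.10, with a 95% interval from -0.26 to 0.46 (limma adjusted p = 0.695). Under scaling to TPM the value was -0.23. yellow-e3 had 0.769 and 0.876 FPKM in yw, 0.686 and 0.775 FPKM in HP1b16, and 0.768 and 0.464 FPKM in HP1b86, with overlap between the genotypes. It was below the filter and was not tested in the fit. With no filter its log2 change averaged over both mutants was -0.13 (limma adjusted p = 0.548).

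Of the 10 members, 8 had a mean of at least 1 FPKM and entered the limma fit over 10986 rows. In HP1b16, 0 of the 8 passed an adjusted p of 0.05, where 0.0182% of all tested rows did. In HP1b86 it was 0 of 8, with 4.03% of all rows, and averaged over both mutants it was 1 of 8, with 6.38% of all rows. At an unadjusted p under 0.05, 3 of 8 members passed in each of these comparisons (1 higher and 2 lower), against 23.7%, 30.04% and 31.1% of all tested rows. The members in question were yellow-f2 as the higher gene and yellow-c and yellow-f as the lower genes. No member passed between HP1b16 and HP1b86, where 0.00910% of all rows did and no member had an unadjusted p under 0.05. The 95% interval of that difference ran from -0.57 to 0.95 on the log2 scale for yellow-f and from -1.55 to 1.53 for yellow-f2. The yw libraries are shared by these comparisons.

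The median log2 change of the 8 tested members was -0.29 averaged over both mutants, with 4 above and 4 below 0, and the median of all tested rows was -0.08. Every mutant library was above both yw libraries for 2 of the 10 members (y and yellow-f2) and below both for 3 (yellow-c, yellow-e and yellow-f). Among the 8 members in the fit the counts were 1 and 3. Over all rows in the fit the shares were 24.4% above and 19.8% below. Without HP1b86 replicate 2, 6 of the 8 members passed averaged over both mutants (yellow-b, yellow-c, yellow-d, yellow-e, yellow-f and yellow-f2), as did 5052 rows of the whole table. Without HP1b86 replicate 1 the numbers were 1 member, yellow-f, and 1766 rows, and leaving out either yw library or either HP1b16 library gave 0 members and 0 rows.

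**Figure D4:**
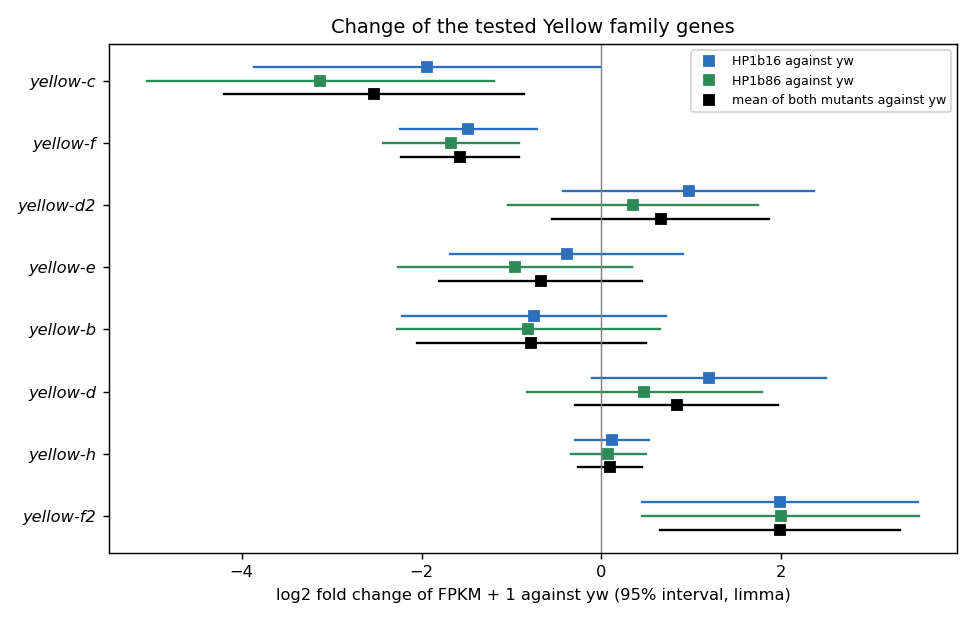
log2 change of FPKM + 1 against yw with its 95% interval from limma, for the 8 Yellow family genes in the fit, in HP1b16 (blue), HP1b86 (green) and their average (black). The interval of yellow-f averaged over both mutants runs from -2.23 to -0.92 and that of yellow-h from -0.26 to 0.46.

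Of the 4 family rows outside the list, yellow-e2 was the one that averaged over 1 FPKM. It had 1.43 and 1.68 FPKM in yw, 7.10 and 9.17 FPKM in HP1b16, and 8.31 and 2.46 FPKM in HP1b86. All mutant libraries were above yw, and the log2 change averaged over both mutants was 1.49 (SE 0.43, limma adjusted p = 0.102). yellow-g had 0 to 0.317 FPKM, and yellow-g2 and yellow-k had at most 0.0318 and 0.0490 FPKM.

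The 13 genes of melanin formation and cuticle tanning that were listed beside the family were all in the fit. Averaged over both mutants 2 of the 13 passed, both higher, where 6.38% of all tested rows passed, and at an unadjusted p under 0.05 there were 5 higher and 3 lower. Dat, whose enzyme acetylates dopamine, had 7.45 and 10.9 FPKM in yw, against 32.3 to 57.6 FPKM over the 4 mutant libraries, a log2 change of 2.06 (SE 0.31, limma adjusted p = 0.0411). stw, which encodes the cuticle laccase that oxidises catechols, had 3.70 and 5.60 FPKM in yw, against 9.04 to 13.1 FPKM over the 4 mutant libraries, a log2 change of 1.10 (SE 0.17, limma adjusted p = 0.0418). Each separate mutant had 0 calls among the 13. At an unadjusted p under 0.05 there were 3 higher and 3 lower in HP1b16, where 23.7% of all tested rows passed, and 6 higher and 3 lower in HP1b86, where 30.04% passed.

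Some further genes of that list, named after their values were seen, also separated the yw libraries from each other. ple, which encodes the tyrosine hydroxylase that starts catecholamine synthesis, had 207 and 19.5 FPKM in yw, against 2.41 to 44.3 FPKM over the 4 mutant libraries. e, whose product couples dopamine to beta-alanine, had 68.2 and 0.825 FPKM in yw, against 0.284 to 6.87 FPKM over the 4 mutant libraries. In both genes, as in yellow-c, yw replicate 1 was the highest of all 6 libraries and HP1b16 replicate 1 was above HP1b16 replicate 2. Ddc, the dopa decarboxylase gene, had 162 and 95.8 FPKM in yw, against 8.15 to 40.0 FPKM over the 4 mutant libraries, with a log2 change of -2.71 averaged over both mutants (SE 0.53, limma adjusted p = 0.0550).

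Lists for other larval tissues and for the stage were summed in the same libraries. All 6 salivary glue genes were found, and their summed level was 73877 and 60796 FPKM in yw, 39488 and 27972 FPKM in HP1b16, and 19183 and 45047 FPKM in HP1b86. The 9 larval cuticle genes summed to 12170 and 23919 FPKM in yw, 57122 and 51751 FPKM in HP1b16, and 65372 and 54253 FPKM in HP1b86. Neither sum overlapped between yw and the mutants. Sgs7 alone made up 50182 and 41847 FPKM of the yw glue sums. Averaged over both mutants, 5 of the 6 glue genes had negative log2 changes and Sgs1 had a positive one, of 0.21. Among single rows in the fit, 24.4% had all 4 mutant libraries above both yw libraries and 19.8% had them below. Lcp65Ab1 and Lcp65Ag2 of the cuticle list were listed at 0 in at least 1 library. The 15 ecdysone response genes summed to 1217 and 1177 FPKM in yw and to between 803 and 1017 FPKM in the mutants. The 5 genes of the pupal cuticle list summed to 469 and 438 FPKM in yw and to between 144 and 239 FPKM in the mutants. Pcp alone made up 460 and 428 FPKM of the yw sums, and the other 3 tested genes of that list had positive log2 changes. Averaged over both mutants, 6.38% of all tested rows were called. There, 3 of 8 tested larval cuticle genes were called higher and 5 of 14 tested ecdysone response genes were called lower. Of the 4 tested genes in the pupal cuticle list 1 was called higher. That gene was Acp1, which is named for the adult cuticle, while Pcp had a log2 change of -1.48 (limma adjusted p = 0.0663). Of the 6 salivary glue genes 0 were called by limma, and 1 was lower at an unadjusted p under 0.05. HP1b86 replicate 2 stood nearer to yw than replicate 1 in the glue, larval cuticle and pupal cuticle sums and farther in the ecdysone response sum. In that list 11 of 14 tested genes had log2 changes below 0 averaged over both mutants, and 3 had them above. ImpL3, 1 of the 3, had 41.7 and 52.1 FPKM in yw. It had 344 FPKM in HP1b86 replicate 1 and 93.3 FPKM in replicate 2, so it raised the sum of replicate 1 more. Among the members HP1b86 replicate 2 was nearer for 7 and farther for yellow-d2, yellow-e3 and yellow-h, against 69.9% nearer over all tested rows. The part of larval stage, or of the share of each tissue, in the levels of the Yellow family was not tested, and in whole larvae fewer cells that express a gene and less RNA per cell cannot be told apart.

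**Figure D5:**
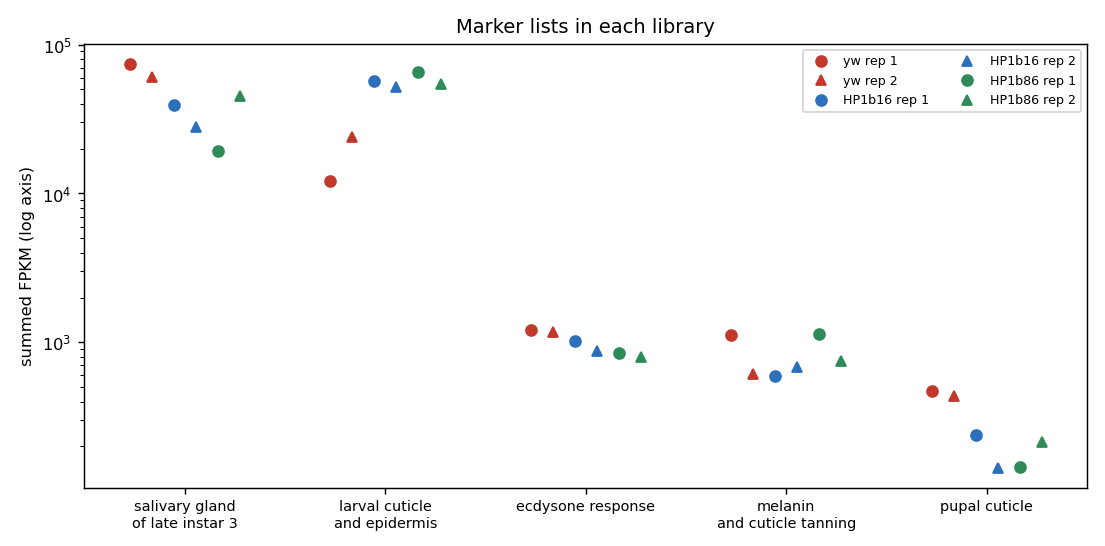
Summed FPKM of marker lists in each of the 6 libraries, on a log axis; colours mark the genotype, circles replicate 1 and triangles replicate 2. The salivary glue sums of the mutants (19183 to 45047 FPKM) lie below both yw sums and the larval cuticle sums of the mutants (51751 to 65372 FPKM) lie above both. Of single rows in the fit, 19.8% lie below and 24.4% above in this way. Sgs7 alone makes up 50182 and 41847 FPKM of the yw glue sums.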

How the data were processed

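RNA of whole instar 3 larvae was measured in 6 libraries. The authors deposited FPKM. The submitters' processing notes name the build dm3 and the tools Cufflinks 2.2.1, TopHat2 2.1.1, Trim Galore 0.4.1 and bcl2fastq 2.18.0.12. The gene annotation and any further scaling between libraries are not given in the sources used here. The table holds no read numbers, so relative depth was taken from the steps of low values (under 0.1 FPKM). The test covered rows averaging 1 FPKM or more, as log2(FPKM + 1) in R 4.3.3 with limma 3.58.1 (trended prior, all 6 libraries in 1 fit), with Benjamini-Hochberg adjustment over all 10986 rows and a threshold of 0.05. A log2 change on this scale understates that of low genes. The procedure was run on simulated normal values with the same SD for all rows of a genotype. Only the estimated size of planted changes was checked there, so it says nothing on the calls. The members and the 7 gene lists (melanin and tanning, salivary gland, fat body, larval cuticle, pupal cuticle, ecdysone response, vitelline membrane) were chosen with earlier results of these data known. The rule for named genes took the members, the other yellow rows, HP1b, called genes of the tanning list, and the rows most like y and like the member with the largest change in log2(FPKM + 1). Genes that overlap members, and single genes of the lists (ple, e, Ddc, Lsp2, Pcp, Acp1, Lcp65Ab1, Lcp65Ag2, ImpL3, Sgs1, Sgs7), were named outside it, after their values were seen. Alternatives changed the pseudocount, filter, scaling, libraries in the fit and replicate block.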

Additional observations from a re-analysis of the deposited data

How the results depend on the processing

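Of the values of single members under the alternatives, 352 were unchanged, 28 came to pass the threshold, 6 no longer passed and 22 changed sign, and the causes were not tested. For tested members unchanged means the same direction and side of the threshold. For y and yellow-e3, untested in the main fit, it means a value that moved by less than the SD within genotypes. Some alternatives, such as the replicate block, cannot move a log2 change, so the 352 is no measure of stability. Scaling to TPM moved the median of all rows to -0.32 in HP1b16, -0.53 in HP1b86 and -0.45 averaged over both. It moved the members' median averaged over both mutants to -0.66, yellow-d in HP1b86 to -0.066, yellow-d2 in HP1b86 to -0.24, and yellow-h to -0.066 in HP1b16, -0.39 in HP1b86 and -0.23 averaged. HP1b16 against HP1b86 for yellow-f2 was 0.29 with TPM, 0.027 with median-ratio scaling and 0.094 with quantile normalization, which also gave -0.032 for yellow-d2 in HP1b86.

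Members called in HP1b16 numbered 1 with quantile normalization and 3 with yw alone. In HP1b86 there were 2 with TPM and 2 with quantile normalization. Averaged over both mutants there were 2 with a pseudocount of 0.1, 2 with quantile normalization and 0 with no filter. Rows called over the whole table in HP1b16 were 35 with a pseudocount of 0.1, 1 with no filter, 292 with TPM, 442 with quantile normalization and 2382 with yw alone. In HP1b86 they were 203 with no filter, 2071 with TPM, 1 with median-ratio scaling, 0 with yw alone and 828 with quantile normalization. Averaged over both they were 461, 1214, 467 and 1246 with no filter, TPM, median-ratio scaling and quantile normalization. Between the alleles they were 4 with a pseudocount of 0.1, 2 with median-ratio scaling and 3 with quantile normalization.

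With the replicate block, 0 rows and 0 members were called in any comparison (yellow-f: limma adjusted p = 0.128). Deviations of same-numbered libraries correlated at 0.0740 (yw and HP1b16), -0.401 (yw and HP1b86) and -0.115 (HP1b16 and HP1b86). The labels only number the replicates, and whether libraries were paired across genotypes cannot be told from these values.

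Leaving out single libraries, where a lone library is assumed to vary like the other groups, gave 0 to 3 members and 0 to 2381 rows in HP1b16, 0 to 6 members and 0 to 4680 rows in HP1b86, 0 to 6 members and 0 to 5052 rows averaged over both, and 0 to 1 member and 0 to 2013 rows between the alleles. The highest numbers came without an HP1b86 library. The members' median ran from -0.50 to -0.08. Signs changed in HP1b86 against yw for yellow-d (-0.25 to 1.202), yellow-d2 (-0.18 to 0.89) and yellow-h (-0.060 to 0.21), and between the alleles for yellow-b (-0.60 to 0.73), yellow-d (-0.0053 to 1.45), yellow-e (-0.13 to 1.28), yellow-f (-0.12 to 0.50), yellow-f2 (-0.62 to 0.61) and yellow-h (-0.093 to 0.18). Depth limits y and yellow-f2 in yw most.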

Other observations

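Genes with a pattern close to that of single members were looked up over the 6 libraries, as a description with no test. Libraries of a genotype share their source, and a difference between yw and the mutants alone gives a high value. The rows most like y in log2(FPKM + 1) were CG5246 (Pearson's r of 0.998), Cpr49Af (0.997), a cuticle protein gene, and CG9757 (0.997), and 596 of the tested rows had an r above 0.95 with y. Cpr49Af had 2.11 and 2.74 FPKM in yw, 209 and 264 FPKM in HP1b16, and 368 and 48.4 FPKM in HP1b86. As for y, HP1b86 replicate 2 was the lowest of the mutant libraries there. The rows most like yellow-c, the tested member with the largest change in log2(FPKM + 1) averaged over both mutants (yellow-f2 had the largest with 0.1 added in place of 1), were Meltrin (r of 0.997), slmb (0.996) and Sap130 (0.995), and 254 rows had an r above 0.95. These 3 genes changed little in size: slmb had 37.4 and 31.3 FPKM in yw, against 19.1 to 28.1 FPKM over the mutant libraries.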
